A study of Rattus norvegicus with 18 samples.

Results

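The genes described are 31 lysosomal hydrolases and lysosomal membrane proteins, chosen by name: the cathepsins and other peptidases, glycosidases, lipid hydrolases with their activator proteins, LAMP proteins and progranulin. Of the 31, 30 were each the only gene symbol of at least 1 probe set, with 41 probe sets among 31042 on the array. Npc1 was not analysed here. The list was drawn up with earlier results of these arrays in view and for a comparison of direction between the tissues, so the differences between treatment groups, and their directions in fat and hypothalamus, are given as a description, without a test.

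RNA from subcutaneous abdominal fat and from hypothalamus of rats was hybridised to 18 arrays, with 3 arrays for each tissue and treatment. RYGB-Success rats had undergone gastric bypass of the Roux-en-Y type (RYGB), in which a small stomach pouch is joined to a lower stretch of intestine, and were losing weight. RYGB-Fail rats had the same operation and were gaining weight. Pair-Fed rats received as much food as the treated rats. Strain, age, sex, time after surgery and whether Pair-Fed rats had a sham operation are not given in the labels, nor whether an RNA sample was 1 animal or a pool.

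Lysosomes break down proteins, glycans and lipids that arrive by endocytosis, phagocytosis or autophagy. Their hydrolases work at the acid pH that a proton pump in the lysosomal membrane maintains, and heavily glycosylated membrane proteins line that membrane. In adipose tissue macrophages are known for abundant lysosomes that take up lipid from dying adipocytes, and in the brain both neurons and microglia depend on lysosomal clearance. Many lysosomal genes carry in their promoters an E-box, CACGTG, that the transcription factor TFEB and its relatives bind.

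Promoter windows of 300 bases, from 250 before to 50 after the annotated start, were taken from a table made from RefSeq (assembly GRCr8), in which 26 of the 31 genes matched, all but Ctsb, Hexa, Psap, Asah1 and Ppt1. The motif CACGTG, which reads the same on both strands, was present in 3 of the 26 (11.5%), Lamp1, Ctsd and Gaa, against 6.42% of 33469 promoters of the same length. The longer palindrome TCACGTGA, which contains it, was present in 2 of the 26 (7.69%), Ctsd and Lamp1, against 0.777% of all promoters. Lamp1 held 5 copies of CACGTG, beginning 183, 167, 150, 65 and 38 bases before the start, and Ctsd held 2, beginning 157 and 10 bases before it. The windows below are those of Lamp1 and Ctsd, which hold several copies, and of Ctsh, Fuca1 and Gm2a, the genes whose levels separated the groups in opposite directions in fat and hypothalamus. Capitals mark CACGTG. Lamp1 lies at chr16:83075014-83075313 (minus strand), Ctsd at chr1:206968772-206969071 (minus), Ctsh at chr8:99488506-99488805 (plus), Fuca1 at chr5:153436012-153436311 (plus) and Gm2a at chr10:39719669-39719968 (plus).
Lamp1: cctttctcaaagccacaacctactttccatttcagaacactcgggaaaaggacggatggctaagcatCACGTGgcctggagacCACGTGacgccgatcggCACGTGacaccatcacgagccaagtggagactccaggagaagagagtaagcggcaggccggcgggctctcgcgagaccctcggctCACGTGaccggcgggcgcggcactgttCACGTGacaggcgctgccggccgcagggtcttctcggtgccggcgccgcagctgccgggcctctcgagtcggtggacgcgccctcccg
Ctsd: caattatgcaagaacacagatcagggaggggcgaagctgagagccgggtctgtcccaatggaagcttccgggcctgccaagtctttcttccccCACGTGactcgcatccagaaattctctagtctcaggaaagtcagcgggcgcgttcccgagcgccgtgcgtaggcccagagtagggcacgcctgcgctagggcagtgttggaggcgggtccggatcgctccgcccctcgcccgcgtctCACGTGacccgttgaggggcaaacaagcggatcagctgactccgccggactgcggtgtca
Ctsh: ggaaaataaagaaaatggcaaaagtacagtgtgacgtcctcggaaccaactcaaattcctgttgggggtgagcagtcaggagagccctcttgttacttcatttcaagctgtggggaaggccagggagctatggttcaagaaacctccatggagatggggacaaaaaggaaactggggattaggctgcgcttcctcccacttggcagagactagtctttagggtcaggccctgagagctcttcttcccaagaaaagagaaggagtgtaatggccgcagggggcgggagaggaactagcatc
Fuca1: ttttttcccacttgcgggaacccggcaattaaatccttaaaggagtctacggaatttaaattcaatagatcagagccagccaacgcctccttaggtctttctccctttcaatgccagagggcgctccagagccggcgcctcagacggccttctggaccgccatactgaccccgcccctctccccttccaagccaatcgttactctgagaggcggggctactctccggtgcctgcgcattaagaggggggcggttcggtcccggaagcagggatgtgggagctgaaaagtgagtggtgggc
Gm2a: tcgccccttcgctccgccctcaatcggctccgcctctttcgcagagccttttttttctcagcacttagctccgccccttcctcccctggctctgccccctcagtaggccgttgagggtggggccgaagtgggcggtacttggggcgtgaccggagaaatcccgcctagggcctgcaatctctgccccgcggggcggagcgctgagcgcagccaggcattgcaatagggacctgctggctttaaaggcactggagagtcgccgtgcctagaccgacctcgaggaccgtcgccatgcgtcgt
The motif was in none of the windows of Ctsh, Fuca1 and Gm2a.

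Values are MAS5 signals, a linear brightness per probe set that the authors had scaled on each array. Differences are in mean log2 signal with limma's standard error (SE), 3 arrays against 3 unless stated, and each gene is represented by its brightest probe set. That probe set passed a filter keeping the brighter 60% of probe sets for 29 of the 30 genes in fat and 28 in hypothalamus. Neu1, the lysosomal sialidase, failed in both tissues and Ctsk in hypothalamus. The tissue labels held: the adipocyte gene Adipoq ranged from 17271 to 60117 in fat and from 86 to 410 in hypothalamus, and the neuronal gene Snap25 from 52 to 1089 in fat and from 13279 to 25290 in hypothalamus. RYGB-Fail array 3 of fat stood apart, with a median signal of 288, where the other fat arrays had 98.2 to 200, and a median correlation with those of 0.73. Several values of the lysosomal genes and macrophage markers are given without it too. Those rest on RYGB-Fail arrays 1 and 2, whose skeletal muscle markers summed to 59546 and 199602, against 3307 on array 3. They are therefore not a cleaner set. No probe set in fat reached an adjusted p of 0.05 in limma in any of the 3 treatment comparisons (0%), although 905, 501 and 1060 of 18625 had an unadjusted p under 0.05 for RYGB-Success against Pair-Fed, RYGB-Fail against Pair-Fed and RYGB-Success against RYGB-Fail. The counts of 0 depended on single arrays. Without RYGB-Fail array 3 879 probe sets were called higher and 171 lower in RYGB-Success than in RYGB-Fail fat, and 42 higher and 2 lower in RYGB-Fail than in Pair-Fed fat. Array weights gave 3 higher and 20 lower and 36 higher and 0 lower in the same comparisons. Without RYGB-Success array 1 of fat 19 probe sets were called higher and 3 lower in RYGB-Success than in Pair-Fed fat, and 13 higher and 0 lower than in RYGB-Fail fat. In hypothalamus 2 (0.0107%), 0 (0%) and 1 (0.00537%) reached it, with 2447, 445 and 1120 under 0.05 unadjusted. Without RYGB-Success array 2 of hypothalamus 12 were called higher and 52 lower in RYGB-Success than in Pair-Fed hypothalamus, and 1 higher and 5 lower than in RYGB-Fail hypothalamus.

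In fat after successful bypass most of the lysosomal genes had less signal than in Pair-Fed fat. Their mean was lower for 24 of 30 genes and higher for 6, with a median difference of -0.36 against 0.11 over all probe sets tested, of which 41.8% were lower and 58.2% higher. All 3 RYGB-Success arrays lay below all 3 Pair-Fed arrays for 8 genes, a separation that 7.69% of all probe sets showed, and above them for 0 genes, against 10.9% of all. Because the choice of genes used this contrast, nothing is read from those shares. The cysteine cathepsins and glycosidases held 7 of the 8.

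Among the cysteine cathepsins, proteases with a catalytic cysteine, 6 of 7 had a lower mean and the median difference was -0.83. Ctsh, which acts mainly as an aminopeptidase, had signals of 1699, 1436 and 1541 in RYGB-Success fat, against 7215, 5529 and 3643 in Pair-Fed fat. Its difference was -1.76 ± 0.41, or 3.38-fold lower, and the RYGB-Success arrays lay close together while the Pair-Fed arrays spread widely. Ctsk, a collagen-degrading cathepsin known best from osteoclasts, had 158, 238 and 135 in RYGB-Success fat, against 1002, 761 and 320 in Pair-Fed fat, a difference of -1.86 ± 0.62. Ctss, which cleaves the invariant chain in antigen-presenting cells, had 5271, 4044 and 5661 in RYGB-Success fat, against 11960, 8724 and 6535 in Pair-Fed fat, a difference of -0.83 ± 0.45. The groups of both genes were apart, with Pair-Fed array 3 nearest to the RYGB-Success arrays. Ctsb, a broadly expressed cathepsin, overlapped between groups at 22502, 21312 and 13573 in RYGB-Success fat, against 25928, 25940 and 19862 in Pair-Fed fat (-0.35 ± 0.26). Ctsc, the dipeptidyl peptidase that activates granule proteases of immune cells, also overlapped (-1.10 ± 0.52), and Ctsz, a carboxypeptidase, was the cathepsin of this class with a higher mean (0.20 ± 0.42). Ctsl overlapped by its brightest probe set (-0.04 ± 0.39), while a second was lower without overlap (-0.85 ± 0.48). That probe set had 1592, 1622 and 1331 in RYGB-Success fat, against 3532, 2590 and 2209 in Pair-Fed fat.

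The other peptidases did not all lie on the same side. Ctsd, the main aspartic protease of the lysosome, had 561, 1381 and 464 in RYGB-Success fat, against 500, 464 and 361 in Pair-Fed fat. The difference of 0.70 ± 0.44 rested on RYGB-Success array 2 and was 0.22 without it. Ctsa, the carboxypeptidase that protects beta-galactosidase and sialidase (-0.73 ± 0.40), and Tpp1, a tripeptidyl peptidase (-0.52 ± 0.46), had lower means with overlapping groups.

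Of the 9 glycosidases, 8 had a lower mean in RYGB-Success than in Pair-Fed fat, with a median difference of -0.56. Fuca1, which removes fucose from glycans, had 1268, 1276 and 1378 in RYGB-Success fat, against 2492, 2328 and 2202 in Pair-Fed fat. Both groups were tight and well apart, at -0.84 ± 0.29 or 1.79-fold lower. Gla, alpha-galactosidase A, had 418, 400 and 247 in RYGB-Success fat, against 833, 594 and 665 in Pair-Fed fat, so it was 2-fold lower (SE 0.38 in log2). Gaa, which degrades glycogen in the lysosome, had 331, 349 and 120 in RYGB-Success fat, against 379, 367 and 391 in Pair-Fed fat (-0.66 ± 0.46), and its groups were separated by a narrow gap. Hexa, the alpha subunit of beta-hexosaminidase, had 2136, 1529 and 2289 in RYGB-Success fat, against 3265, 3039 and 2399 in Pair-Fed fat (-0.56 ± 0.28). Gusb, beta-glucuronidase, was the glycosidase with a higher mean (0.41 ± 0.36), at 4027, 7523 and 3956 in RYGB-Success fat, against 4431, 2980 and 3835 in Pair-Fed fat.

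The lipid hydrolases and their activators differed less, with a median of -0.22 over 5 genes and overlapping groups for each. Lipa, the acid lipase that frees cholesterol and fatty acids from lipoproteins and lipid droplets, had a higher mean, at 1472, 2764 and 2079 in RYGB-Success fat, against 1503, 1248 and 1454 in Pair-Fed fat (0.54 ± 0.31). The membrane proteins differed little too: Lamp1 and Lamp2, the main glycoproteins of the lysosomal membrane, by -0.26 ± 0.42 and 0.01 ± 0.26, Laptm5, found in lysosomes of blood-derived cells, by -0.25 ± 0.70, and Scarb2, the receptor that carries glucocerebrosidase to the lysosome, by -0.24 ± 0.38. By the brightest probe set the RYGB-Success and Pair-Fed ranges of all these membrane proteins overlapped. A second Lamp2 probe set was lower without overlap (-0.37 ± 0.24). It had 3439, 3113 and 3721 in RYGB-Success fat, against 4124, 4493 and 4638 in Pair-Fed fat. A second Laptm5 probe set had the opposite sign (0.42), and so did a Lamp1 probe set below the filter (2.50). Grn, the precursor of the granulins and a regulator of lysosomal function, had 2415, 1282 and 1631 in RYGB-Success fat, against 4216, 4132 and 3159 in Pair-Fed fat. It was 2.22-fold lower (-1.15 ± 0.32) with no overlap.

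**Figure D1:**
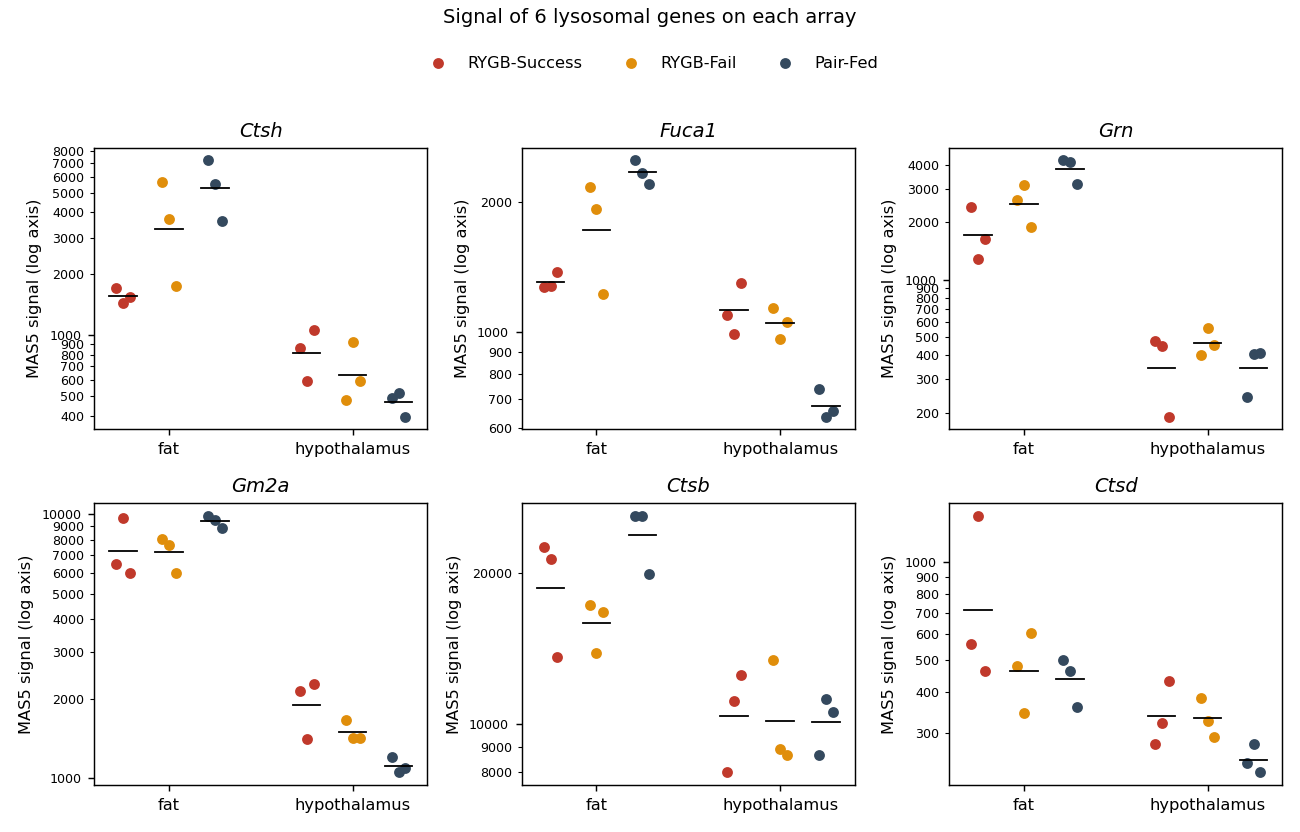
MAS5 signal (log axis) of 6 lysosomal genes on each of the 18 arrays, by tissue and treatment group; each point is 1 array and each bar the mean of 3 arrays on the log scale. Within fat Ctsh, Fuca1 and Grn have their lowest mean in RYGB-Success, and within hypothalamus Fuca1, Gm2a and Ctsd have theirs in Pair-Fed.

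In fat after failed bypass the mean was lower than in Pair-Fed fat for 28 of 30 genes and higher for 2, with a median of -0.39 against -0.09 over all probe sets, of which 58.1% were lower and 41.9% higher. Groups were apart for 4 genes, all lower, where 4.33% of all probe sets were lower in this way, and for 0 genes higher (2.57% of all), and nothing is read from these shares. The means included RYGB-Fail array 3: without it 25 of 30 genes were lower and the median was -0.17, and without RYGB-Fail array 1 the median was -0.62. Among the 5 genes higher without array 3 were Lamp1, Laptm5, Ctsk and Gaa.

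Ctsb had 17243, 13841 and 16656 in RYGB-Fail fat, against 25928, 25940 and 19862 in Pair-Fed fat, a difference of -0.58 ± 0.26. Grn had 2620, 3138 and 1883 in RYGB-Fail fat, just below the Pair-Fed lowest of 3159 (-0.61 ± 0.32). Fuca1 had 2160, 1922 and 1225 in RYGB-Fail fat, against a Pair-Fed lowest of 2202 (-0.44 ± 0.29), so its separation was narrow, and the difference was -0.20 without array 3. Gm2a, the activator that lifts ganglioside out of the membrane for beta-hexosaminidase, had 8073, 7650 and 6010 in RYGB-Fail fat, against 9873, 9538 and 8886 in Pair-Fed fat (-0.39 ± 0.26, and -0.26 without array 3). Ctsh spread over 5639, 3718 and 1743 in RYGB-Fail fat and overlapped with Pair-Fed fat (-0.66 ± 0.41, and -0.20 without array 3). By the brightest probe set Ctss (-0.74 ± 0.45), Laptm5 (-0.57 ± 0.70), Lamp1 (-0.24 ± 0.42), Lamp2 (-0.34 ± 0.26) and Ctsd (0.09 ± 0.44) overlapped as well. A second Lamp1 probe set gave 0.13. Without array 3 the differences of these 5 genes were -0.13, 0.04, 0.25, -0.20 and -0.10, so Laptm5, Lamp1 and Ctsd changed sign. The second Lamp2 probe set was lower without overlap in RYGB-Fail fat too (-0.41 ± 0.24), at 3583, 2879 and 3570. By the brightest probe set, all 6 bypass arrays lay below all 3 Pair-Fed arrays for 2 of the genes, Fuca1 and Grn (1.18% of all probe sets), and above them for 0 (0.827%). The second Lamp2 probe set was below on all 6 bypass arrays as well.

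The bypass groups did not differ in fat in a common direction, with 15 genes lower and 15 higher in RYGB-Success than in RYGB-Fail and a median of 0.00 against 0.17 over all probe sets, of which 37.4% were lower and 62.6% higher. The median was -0.33 without RYGB-Fail array 3 and 0.26 without RYGB-Fail array 1. Lipa was higher on all RYGB-Success arrays, at 1472, 2764 and 2079, against 1223, 1270 and 1045 in RYGB-Fail fat (0.79 ± 0.31), as 5.26% of all probe sets were. Gaa had 331, 349 and 120 in RYGB-Success fat, against 385, 610 and 579 in RYGB-Fail fat (-1.10 ± 0.46), and Ctsh was lower by the same measure (-1.09 ± 0.41, and -1.56 without RYGB-Fail array 3), with its RYGB-Success highest of 1699 close to RYGB-Fail array 3 at 1743. Hexa had 2136, 1529 and 2289 in RYGB-Success fat, against 3041, 2372 and 2528 in RYGB-Fail fat (-0.43 ± 0.28). A separation in that direction was seen for 2.61% of all probe sets.

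The lower lysosomal signal in RYGB-Success fat came with lower signal of macrophage markers. The summed signal of 15 macrophage and microglia markers ranged from 24813 to 30855 in RYGB-Success fat and from 15417 to 55183 in RYGB-Fail fat, against 30344 to 71574 in Pair-Fed fat. Both bypass ranges overlapped that of Pair-Fed fat. Of the 15 markers, 13 had a lower mean in RYGB-Success and 14 in RYGB-Fail than in Pair-Fed fat, with medians of -1.01 and -0.41. The RYGB-Fail count rested on array 3: without it 6 markers had a lower and 9 a higher mean than in Pair-Fed fat, with a median of 0.12. Mrc1, the mannose receptor of tissue macrophages, had 8151, 8820 and 5325 in RYGB-Success, 14445, 10603 and 5478 in RYGB-Fail and 20071, 17632 and 10646 in Pair-Fed fat. Cd163, a haemoglobin scavenger receptor of macrophages, had 3661, 3657 and 2587 in RYGB-Success, 5099, 4253 and 2636 in RYGB-Fail and 9060, 10985 and 3962 in Pair-Fed fat. Without RYGB-Fail array 3 both were among the 6 lower markers (-0.33 and -0.66). Csf1r (0.06), Aif1 (0.39) and Adgre1 (0.22) were among the 9 higher. Ptprc and Itgam had a higher mean in RYGB-Success than in Pair-Fed fat. Ptprc had 1451, 1738 and 8414 in RYGB-Success, against 1907, 1422 and 1395 in Pair-Fed fat. Itgam was dim, between 1.97 and 70.3 on the 9 fat arrays. Summed fibroblast markers were lower too, at 25127 to 72469 in RYGB-Success and 37822 to 85564 in RYGB-Fail fat, against 84389 to 115873 in Pair-Fed fat. The RYGB-Fail and Pair-Fed ranges overlapped. All 4 lymphocyte markers on the array had a higher mean in RYGB-Success than in Pair-Fed fat, with a median of 1.72. They summed to 512, 550 and 4922 on the RYGB-Success arrays, against 254 to 509 in Pair-Fed fat. Skeletal muscle markers summed to 59546, 199602 and 3307 on RYGB-Fail arrays 1, 2 and 3 of fat, against 551 to 1161 in Pair-Fed fat. Values without array 3 thus come from the 2 arrays with most muscle signal. Skin and mammary epithelium markers reached 67349 and 34100 on RYGB-Success arrays 2 and 3, against at most 1573 in Pair-Fed fat. The part of these cells in the lysosomal differences was not tested. In whole tissue, fewer cells of a type and less RNA per cell cannot be told apart.

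**Figure D2:**
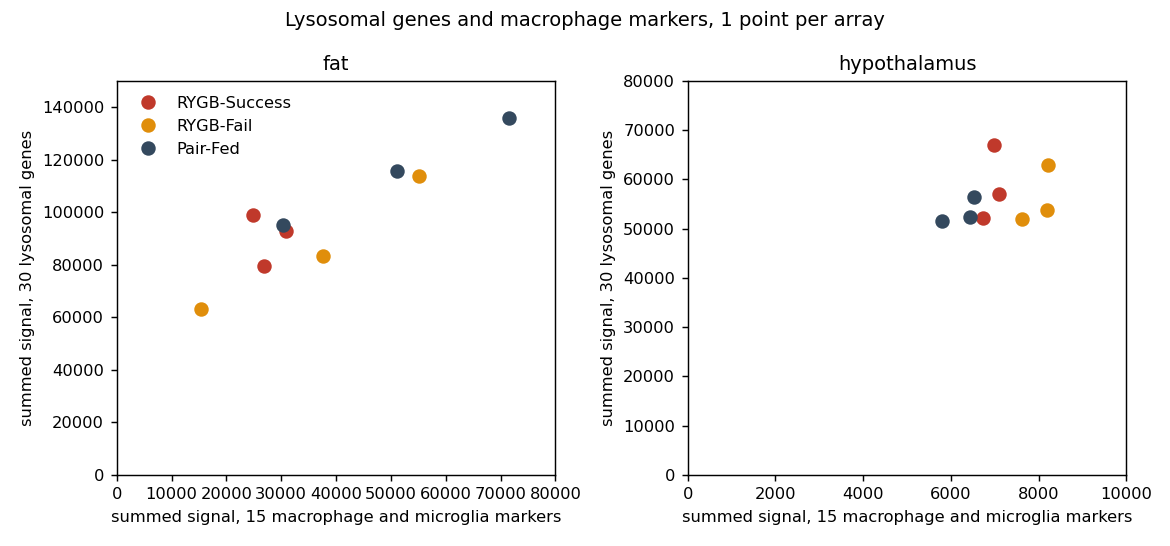
Summed MAS5 signal of the 30 lysosomal genes (vertical axis) against that of 15 macrophage and microglia markers (horizontal axis) in fat and in hypothalamus, with 1 point per array and linear axes that start at 0. In fat the array with the highest marker sum, a Pair-Fed array at 71574, also had the highest lysosomal sum, 136085, and the array with the lowest, RYGB-Fail array 3 at 15417, had the lowest lysosomal sum, 63252.

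In hypothalamus after successful bypass more lysosomal genes were above than below Pair-Fed hypothalamus. The mean was higher for 21 of 30 genes and lower for 9, with a median difference of 0.12 against 0.05 over all probe sets, of which 54.4% were higher and 45.6% lower. The median was -0.12 with 12 genes higher when every array was centred on its own median, which moved the median of all probe sets to -0.19. Groups were apart for 6 genes higher and 2 lower, where 10.8% and 7.28% of all probe sets were, and nothing is read from these shares. Without RYGB-Success array 2 the mean was higher for 17 genes.

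Ctsh had 860, 592 and 1054 in RYGB-Success hypothalamus, against 492, 517 and 396 in Pair-Fed hypothalamus, a difference of 0.80 ± 0.29. Gm2a had 2148, 1408 and 2281 in RYGB-Success hypothalamus, against 1206, 1057 and 1092 in Pair-Fed hypothalamus (0.77 ± 0.22). Fuca1 had 1096, 990 and 1298 in RYGB-Success hypothalamus, against 737, 636 and 656 in Pair-Fed hypothalamus (0.73 ± 0.21). These 3 genes were 1.75-, 1.7- and 1.66-fold higher, and in each the Pair-Fed arrays were close together. Ctsa had 645, 542 and 650 in RYGB-Success hypothalamus, against 440, 393 and 434 in Pair-Fed hypothalamus (0.53 ± 0.23). Ctsd had 278, 322 and 432 in RYGB-Success hypothalamus, against 243, 278 and 228 in Pair-Fed hypothalamus, so that its groups nearly met, with both edges at 278 after rounding (0.44 ± 0.26). Man2b1, the lysosomal alpha-mannosidase, had 216, 220 and 241 in RYGB-Success hypothalamus, against 147, 213 and 137 in Pair-Fed hypothalamus (0.47 ± 0.28), again a narrow gap.

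Of the 9 genes with a lower mean, 2 had separate groups by the brightest probe set, Lamp2 and Ctsk. Among the others, whose groups overlapped, were Gusb (-0.47 ± 0.25), Ctsz (-0.46 ± 0.35) and Hexa (-0.33 ± 0.41). Asah1 was too (-0.27 ± 0.25), but its second probe set gave 0.57. Lamp2 had 3513, 3948 and 3940 in RYGB-Success hypothalamus, against 4025, 4855 and 4023 in Pair-Fed hypothalamus (-0.17 ± 0.17), while a second Lamp2 probe set was higher without overlap (0.44 ± 0.21), at 2166, 2144 and 2862 in RYGB-Success hypothalamus, against 1770, 1665 and 1821 in Pair-Fed hypothalamus. Ctsk was below the filter, at 21.4, 7.34 and 4.57 in RYGB-Success hypothalamus, against 40.5, 45.4 and 56.7 in Pair-Fed hypothalamus, and no fold is given. Ctsb (0.04 ± 0.21), Ctss (0.06 ± 0.18), Lamp1 (0.10 ± 0.24, and -0.15 in a second probe set) and Grn (0.00 ± 0.35) overlapped between groups. Laptm5 did too (0.40 ± 0.31), and its second probe set had the opposite sign, at -0.76.

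In hypothalamus after failed bypass the mean was higher than in Pair-Fed hypothalamus for 25 of 30 genes, and lower for 5, with a median of 0.20 against 0.03 over all probe sets, of which 54.4% were higher and 45.6% lower. By the brightest probe set all 9 glycosidases were among the 25, but Gusb (0.01 ± 0.25) and Manba (0.02 ± 0.32) were close to 0. Neu1 was below the filter. A second probe set gave -0.09 for Gla and 1.67 for Gaa. Second probe sets below the filter gave -0.78 for Man2b1 and -1.30 for Neu1. With arrays centred on their median 19 of the 30 genes were higher and the median was 0.09. Groups were apart for 6 genes higher, against 5.81% of all probe sets, and for 0 lower, against 3.36%, and nothing is read from these shares.

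Laptm5 had 355, 450 and 364 in RYGB-Fail hypothalamus, against 151, 265 and 284 in Pair-Fed hypothalamus (0.78 ± 0.31), but its second probe set gave -0.21. Fuca1 had 1134, 961 and 1051 in RYGB-Fail hypothalamus, all above the Pair-Fed highest of 737 (0.63 ± 0.21). Gm2a had 1672, 1424 and 1419 in RYGB-Fail hypothalamus, all above the Pair-Fed highest of 1206 (0.43 ± 0.22). Ctsz had 383, 289 and 339 in RYGB-Fail hypothalamus, against 206, 265 and 262 in Pair-Fed hypothalamus (0.46 ± 0.35). Ctsd had 385, 327 and 292 in RYGB-Fail hypothalamus, against 243, 278 and 228 in Pair-Fed hypothalamus (0.42 ± 0.26). Ctsl, an endopeptidase that also processes other cathepsins, was the sixth (0.31 ± 0.20), but its second probe set overlapped between groups (0.06 ± 0.24). The differences of Ctsb (0.00 ± 0.21), Ctss (0.10 ± 0.18), Lamp1 (-0.24 ± 0.24), Lamp2 (-0.04 ± 0.17, and 0.27 in a second probe set) and Grn (0.44 ± 0.35) came with overlapping groups. All 6 bypass arrays lay above all 3 Pair-Fed arrays for 3 genes, Fuca1, Gm2a and Ctsd (2.45% of all probe sets), and below them for 0 (1.2%).

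Between the bypass groups in hypothalamus 12 genes were higher and 18 lower in RYGB-Success than in RYGB-Fail, with a median of -0.03 against 0.01 over all probe sets, of which 51.6% were higher and 48.4% lower. Groups were apart for 2 genes higher (5.84% of all probe sets) and 4 lower (4.69%). Ctsa had 645, 542 and 650 in RYGB-Success hypothalamus, against 394, 489 and 509 in RYGB-Fail hypothalamus (0.40 ± 0.23), and the dim Neu1 had 57.7, 87.8 and 82.3 in RYGB-Success hypothalamus, against 52.8, 25.5 and 54.7 in RYGB-Fail hypothalamus. On the lower side Ctsz had 225, 252 and 96.2 in RYGB-Success hypothalamus, against 383, 289 and 339 in RYGB-Fail hypothalamus (-0.93 ± 0.35). Gusb had 638, 730 and 458 in RYGB-Success hypothalamus, against 993, 768 and 752 in RYGB-Fail hypothalamus (-0.48 ± 0.25). Ctsl had 1036, 1148 and 1068 in RYGB-Success hypothalamus, against 1643, 1384 and 1217 in RYGB-Fail hypothalamus (-0.37 ± 0.20). Its second probe set overlapped between groups (-0.13 ± 0.24). Lamp2 was the fourth (-0.13 ± 0.17), and its second probe set had the opposite sign, at 0.17.

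The summed signal of the macrophage and microglia markers was higher in bypass than in Pair-Fed hypothalamus. It was 6723 to 7102 in RYGB-Success and 7622 to 8221 in RYGB-Fail hypothalamus, against 5802 to 6514 in Pair-Fed hypothalamus, without overlap. Of the 15 markers, 9 had a higher mean in RYGB-Success and 13 in RYGB-Fail than in Pair-Fed hypothalamus, with medians of 0.17 and 0.43, where 54.4% of all probe sets were higher in each comparison, with medians of 0.05 and 0.03. Cd68, a lysosomal protein of macrophages outside that list, ranged from 6.6 to 76.9 on the 9 hypothalamus arrays. Choroid plexus markers summed to 13370 to 20848 in RYGB-Success and 14545 to 18918 in RYGB-Fail hypothalamus, against 8394 to 13562 in Pair-Fed hypothalamus. The RYGB-Success and Pair-Fed ranges of these sums overlapped. The part of these cells in the lysosomal differences was not tested.

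Set side by side, and as the authors had scaled the arrays, most of the genes had opposite signs of difference from Pair-Fed in the tissues. For RYGB-Success, 18 of 30 genes (60%) were lower in fat and higher in hypothalamus, where 24.7% of 15531 probe sets tested in both tissues were, and 3 (10%) were the other way round, against 26.1%. A further 6 genes were lower in both tissues (20.4% of all probe sets) and 3 were higher in both (28.8%). For RYGB-Fail, 23 of 30 (76.7%) were lower in fat and higher in hypothalamus, against 30.5%, and 0 were the other way round, against 18.1%, while 5 were lower in both (27.7%) and 2 higher in both (23.7%). Both comparisons share the Pair-Fed arrays. Some of the hypothalamus differences counted as higher were close to 0. They included Grn (0.00 ± 0.35), Psap (0.01 ± 0.19) and Ctsb (0.04 ± 0.21) for RYGB-Success. For RYGB-Fail they included Ctsb (0.00 ± 0.21), Gusb (0.01 ± 0.25) and Psap (0.02 ± 0.19). Between the bypass groups, 6 genes (20%) were lower in fat and higher in hypothalamus (20.4% of all probe sets) and 9 (30%) the other way round (29.7%), 9 were lower in both (19.5%) and 6 higher in both (30.4%). The list was drawn up for this direction, so nothing is read from the shares, and they moved with the scaling: centring arrays on their median gave 11 genes for RYGB-Success and 17 for RYGB-Fail. Without RYGB-Fail array 3 of fat the RYGB-Fail count was 22. The median of the fat difference minus the hypothalamus difference was -0.51 for RYGB-Success and -0.55 for RYGB-Fail, against 0.03 and -0.11 over all probe sets.

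Few genes had separate groups in both tissues with opposite directions. By the brightest probe set, Ctsh and Fuca1 did in the RYGB-Success comparison, at -1.76 in fat and 0.80 in hypothalamus for Ctsh and at -0.84 and 0.73 for Fuca1, as 1.06% of probe sets did. The second Lamp2 probe set did as well, at -0.37 and 0.44. Ctsk was separate in both tissues but lower in both, with signal below the filter in hypothalamus. Fuca1 and Gm2a had opposite directions in the RYGB-Fail comparison, at -0.44 in fat and 0.63 in hypothalamus for Fuca1 and at -0.39 and 0.43 for Gm2a, as 0.296% did. Without RYGB-Fail array 3 the fat differences of Fuca1 and Gm2a were -0.20 and -0.26. Nothing is read from these shares. The Lamp1 groups overlapped in both tissues of RYGB-Success and of RYGB-Fail rats.

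**Figure D3:**
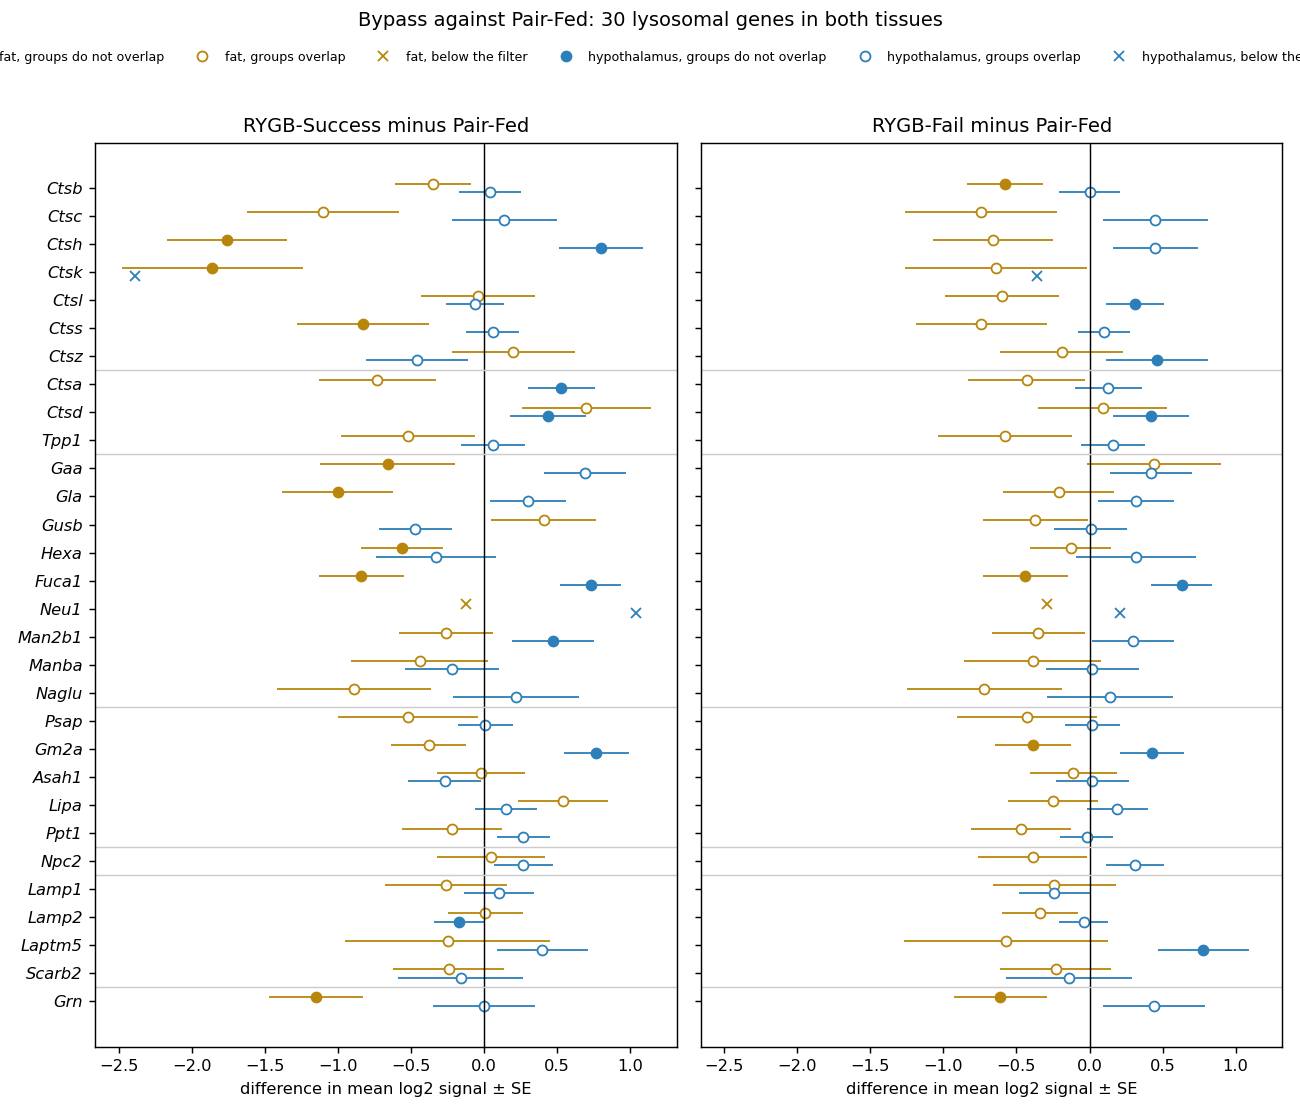
Difference in mean log2 signal from Pair-Fed for the 30 lysosomal genes, in role order, in fat and in hypothalamus, for RYGB-Success (left) and RYGB-Fail (right). Bars are limma standard errors (3 arrays against 3), filled points are genes whose groups do not overlap, and crosses without a bar are genes below the filter. Points for fat lie mostly left of 0 and points for hypothalamus mostly right of it, with 18 of 30 genes so placed for RYGB-Success and 23 of 30 for RYGB-Fail. Several of the hypothalamus points so counted lie close to 0.

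Other genes of the lysosome, a list of 131 outside the genes above of which 114 were on the array, were tested in the same fits. With limma 0 of the 102 that passed the filter reached an adjusted p of 0.05 in any of the 6 treatment comparisons. In fat, 7 had an unadjusted p under 0.05 for RYGB-Success against Pair-Fed, 2 for RYGB-Fail against Pair-Fed and 2 for RYGB-Success against RYGB-Fail. The lowest adjusted p in these was 0.697, 1 and 0.827. In hypothalamus the counts in the same order were 8, 1 and 5, and the lowest adjusted p was 0.233, 1 and 0.784. Of all 18625 probe sets, 905, 501 and 1060 had an unadjusted limma p under 0.05 in fat, and 2447, 445 and 1120 in hypothalamus.

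Of the 29 other hydrolases on the array, 22 had a lower mean in RYGB-Success fat and 24 in RYGB-Fail fat than in Pair-Fed fat, with medians of -0.40 and -0.42. Of all probe sets 41.8% and 58.1% were lower, with medians of 0.11 and -0.09. In hypothalamus 23 and 20 of 29 had a higher mean, with medians of 0.26 and 0.21. There 54.4% of all probe sets were higher in each comparison, with medians of 0.05 and 0.03. The list was chosen with earlier results of these data known, so nothing is read from these counts. The RYGB-Fail fat values include array 3, and none without it is given. The lowest p values in RYGB-Success fat against Pair-Fed fat were those of Sumf1, which activates sulfatases (-1.07 ± 0.32, limma adjusted p 0.697), Scpep1, a serine carboxypeptidase (-1.22 ± 0.43, 0.789), and Aga, which cleaves glycoasparagine (-1.12 ± 0.45, 0.918). In RYGB-Fail fat they were those of Sumf1 (-0.77 ± 0.32), Lgmn, an asparaginyl endopeptidase (-0.85 ± 0.36), and Aga (-0.94 ± 0.45), each with an adjusted p of 1. In hypothalamus they were those of Plbd2, a phospholipase B-like protein (0.88 ± 0.26, adjusted p 0.233), Lamtor5 of the Ragulator complex (0.70 ± 0.23, 0.262) and Atp6v0c of the proton pump (0.62 ± 0.21, 0.266) for RYGB-Success. For RYGB-Fail they were those of Idua, which degrades heparan and dermatan sulfate (0.74 ± 0.29), Wipi2 of autophagosome formation (0.70 ± 0.33) and Rnaset2, an acid ribonuclease (0.45 ± 0.22), again each with an adjusted p of 1. None of these differences passed.

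Between the bypass groups the lowest p values in fat were those of Litaf (0.96 ± 0.36, adjusted p 0.827), Plbd2 (-0.78 ± 0.32, 0.839) and Acp5, the tartrate-resistant phosphatase (1.38 ± 0.65, 0.882). In hypothalamus they were those of Atp6v0e1 (-0.73 ± 0.31), Flcn (-0.91 ± 0.40) and Atp6v0c (0.47 ± 0.21), each with an adjusted p of 0.784. A test of whether the treatment difference itself differed between fat and hypothalamus called 0 of the 95 other lysosomal genes measured in both, as it called 0% of 15531 probe sets. For RYGB-Success against Pair-Fed 10 of the 95 had an unadjusted p under 0.05, led by Plbd2 (-0.75 in fat and 0.88 in hypothalamus, a gap of -1.63 ± 0.40, adjusted p 0.265), Ctsf, a further cysteine cathepsin (-1.24 ± 0.42, 0.438), and Scpep1 (-1.54 ± 0.55, 0.48). For RYGB-Fail against Pair-Fed 5 did, led by Lgmn, Aga and Idua with adjusted p of 1, and for RYGB-Success against RYGB-Fail 2 did, with a lowest adjusted p of 0.732. Of all 15531 probe sets, 1283, 466 and 1002 had an unadjusted limma p under 0.05 in the same comparisons. Nothing is read from these counts.

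The groups of other lysosomal genes differed in their spread of directions. Over all probe sets 41.8% and 58.1% were lower in RYGB-Success and RYGB-Fail fat, with medians of 0.11 and -0.09. In hypothalamus 54.4% were higher in each comparison, with medians of 0.05 and 0.03. The RYGB-Fail fat values of these lists include array 3, and nothing is read from the counts. Proton pump subunits had a lower mean in 15 of 21 cases in RYGB-Success fat and likewise in RYGB-Fail fat, with medians of -0.22 and -0.16, and a higher mean in 14 of 21 in both hypothalamus comparisons with Pair-Fed (medians 0.08 and 0.02). Other membrane proteins and transporters had medians of 0.07 and -0.23 in RYGB-Success and RYGB-Fail fat and of 0.16 and 0.01 in hypothalamus. Autophagy genes had medians of 0.04 and -0.12 in fat and of -0.04 and 0.01 in hypothalamus. The regulators, which include the transcription factor Tfeb and its relatives, had medians of -0.14 and -0.03 in fat and of 0.06 and -0.02 in hypothalamus. The 6 sorting genes, among them the mannose 6-phosphate receptors, had medians of -0.09 and 0.21 in fat and of 0.22 and 0.02 in hypothalamus, and the 4 cathepsin inhibitors of -0.44 and -0.73 in fat and of 0.19 and 0.23 in hypothalamus.

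The level in fat against hypothalamus, which the choice of genes did not use, was tested over all 18 arrays with the 6 groups weighted equally. Most of the lysosomal genes were higher in fat: with limma, 22 of the 29 that passed the filter were higher at an adjusted p of 0.05, 3 were lower and 4 did not pass. Of all the probe sets tested, 65.2% of 18625 were called, 37% higher and 28.2% lower in fat. The median difference was 0.91 over the 30 genes, against 0.17 over all probe sets. For 16 genes, with Ctsk of the dim hypothalamus signal among them, every fat array lay above every hypothalamus array. The share of all probe sets so placed is not given, so nothing is read from that count. With arrays centred on their median, 13 genes were higher and 5 lower in fat, and 4003 probe sets were higher and 7292 lower, against 6895 and 5252 without centring.

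Peptidases differed widely. Ctsc ranged from 1708 to 10541 with a median of 4275 in fat, and from 167 to 501 with a median of 315 in hypothalamus, a difference of 3.82 ± 0.28 (limma adjusted p 1.44e-09) or 14.1-fold. Ctsk ranged from 135 to 1002 (median 320) in fat and from 4.57 to 71.4 (median 34.2) in hypothalamus. It failed the hypothalamus filter and entered the contrast through fat, so it counts among the 22 but no difference is given. Ctsh ranged from 1436 to 7215 (median 3643) in fat and from 396 to 1054 (median 591) in hypothalamus (2.27 ± 0.22, adjusted p 4.2e-08). None of these 3 genes overlapped between tissues. Ctsb was 1.88-fold higher in fat, at 13573 to 25940 against 8007 to 13387 in hypothalamus (0.91 ± 0.14, adjusted p 1.37e-05). Ctsd was higher by 0.79 ± 0.21 (adjusted p 0.00311) with overlapping arrays. Ctss did not pass (-0.44 ± 0.21, adjusted p 0.0746): it ranged from 2256 to 11960 in fat and from 7163 to 10645 in hypothalamus.

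Among the glycosidases 6 were higher in fat and 2 lower. Man2b1 ranged from 698 to 1450 in fat and from 137 to 241 in hypothalamus (2.38 ± 0.16, adjusted p 5.01e-10), and Gusb from 1842 to 7523 in fat and from 458 to 993 in hypothalamus (2.33 ± 0.18, adjusted p 2.97e-09). Fuca1 was higher by 0.91 ± 0.13 (adjusted p 1e-05) and Hexa by 1.86 ± 0.22 (adjusted p 6.71e-07). Gaa was 2.5-fold lower in fat, at 120 to 610 (median 379) against 459 to 1356 (median 885) in hypothalamus (-1.32 ± 0.22, adjusted p 3.52e-05), but between Pair-Fed arrays alone the difference was -0.88 with an adjusted p of 0.0692. Gla was lower by 0.53 on the log2 scale (SE 0.18, adjusted p 0.0176), but the difference was 0.09 between Pair-Fed arrays alone.

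Gm2a ranged from 6006 to 9873 in fat and from 1057 to 2281 in hypothalamus, a difference of 2.42 ± 0.13 (limma adjusted p 2.93e-11). Asah1, acid ceramidase, was higher by 0.90 ± 0.16 (adjusted p 7.28e-05) and Ppt1, a palmitoyl-protein thioesterase, lower at -0.64 ± 0.16 (adjusted p 0.00164), or -0.33 between Pair-Fed arrays alone (adjusted p 0.355). Lipa was higher by 0.33 ± 0.14 (adjusted p 0.0438), a call lost in 12 of the 18 fits that left out 1 array. Psap, the precursor of the saposins, differed by -0.38 ± 0.22 (adjusted p 0.134). Npc2, which hands cholesterol to the membrane protein of the same pathway, was higher by 0.74 ± 0.17 (adjusted p 0.00117). Grn was 6.66-fold higher in fat, at 1282 to 4216 against 191 to 557 in hypothalamus (2.73 ± 0.20, adjusted p 1.71e-09).

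The membrane proteins split. Lamp1 ranged from 2892 to 8362 in fat and from 4717 to 10332 in hypothalamus (-0.01 ± 0.21, limma adjusted p 0.963). Lamp2 ranged from 5335 to 9264 in fat and from 3513 to 4855 in hypothalamus without overlap (0.90 ± 0.11, adjusted p 1.7e-06). Laptm5 was 3.99-fold higher in fat with overlapping arrays (2.00 ± 0.34, adjusted p 5.44e-05), and Scarb2 2.22-fold higher (1.15 ± 0.24, adjusted p 0.000402).

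**Figure D4:**
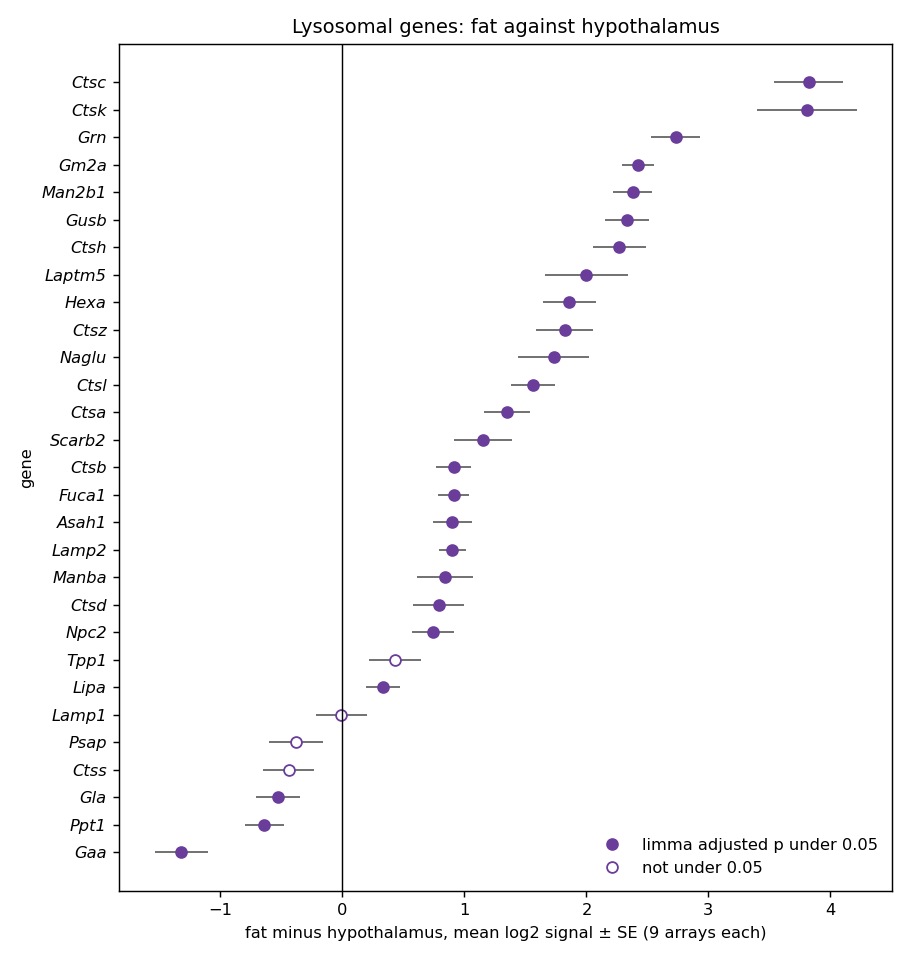
Fat minus hypothalamus difference in mean log2 signal for the 29 lysosomal genes that passed the filter, 9 arrays per tissue, with limma standard errors as bars; filled points have an adjusted p under 0.05. Of the filled points 22 lie right of 0 and 3 (Gla, Ppt1 and Gaa) left of it. The point of Ctsk rests on signal below the filter in hypothalamus.

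The proton pump ran the other way from the hydrolases. Of its 20 subunits and accessory proteins that passed the filter, 19 were called by limma, 15 lower and 4 higher in fat, and the median over all 21 on the array was -1.28. Of all probe sets tested, 65.2% were called, 37% higher and 28.2% lower in fat. Atp6v1a, the catalytic subunit, ranged from 1314 to 2208 in fat and from 5764 to 8134 in hypothalamus (-1.89 ± 0.12, adjusted p 2.55e-10). Atp6v1g2, a subunit known from neurons, was dim in fat, at 7.02 to 284 against 1987 to 3691 in hypothalamus, so it counts among the 15 but no difference is given. Tcirg1 (1.72 ± 0.31, adjusted p 9.06e-05) and Atp6v0e1 (1.68 ± 0.18, adjusted p 2.3e-07) were among the 4 higher in fat. Of the 26 other hydrolases that passed, in contrast, 14 were called higher and 5 lower in fat, and the median over all 29 was 0.96. Of the 14 autophagy genes 6 were called, 1 higher and 5 lower. Tfeb was higher in fat by 0.86 ± 0.34 (limma adjusted p 0.0336) with overlapping arrays.

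**Figure D5:**
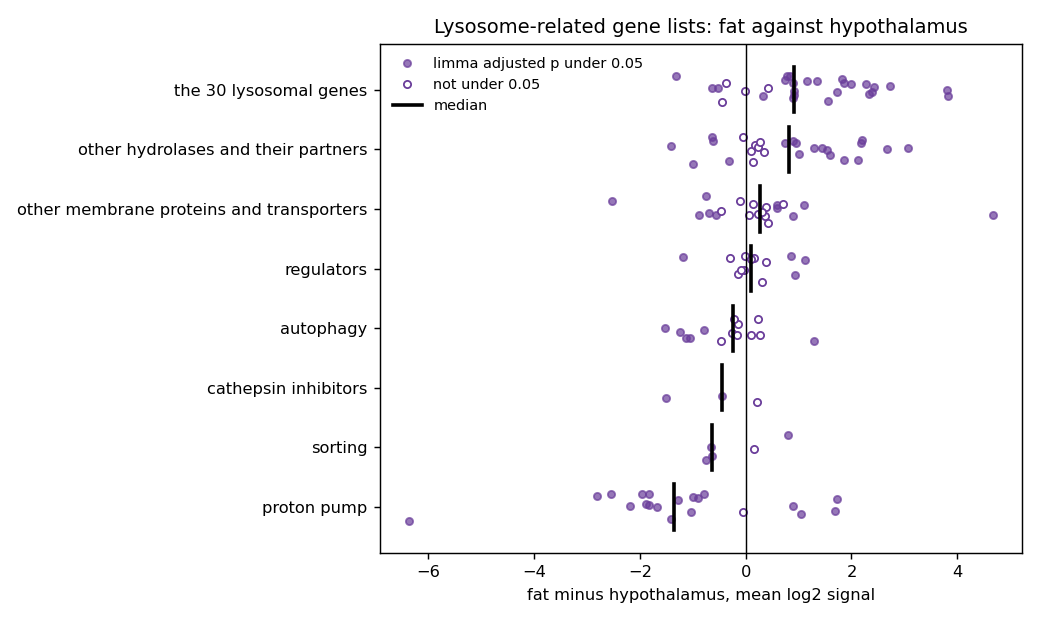
Fat minus hypothalamus difference in mean log2 signal for the lysosomal genes (top) and the other lysosome-related lists; each point is a gene that passed the filter, filled points have a limma adjusted p under 0.05, and the black bar is the median of the genes drawn. The 19 called proton pump genes lie mostly left of 0, 15 of them lower in fat, while 22 of the 25 called lysosomal genes lie right of it.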

How the data were processed

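Intensity values were taken from the deposited table of 18 Affymetrix arrays. Per the submitters' processing notes the authors used MAS5 and GCOS; versions and scaling target are not given in the sources used here. Trimmed mean signals (2% trim) lay between 500.13 and 500.2 on all arrays, so the deposited intensities had been scaled by the authors. Groups came from the sample titles. Signals were log2 transformed without further normalization, 57 array controls were left out of 31099 probe sets, and the upper 60.0% by mean log2 signal in a tissue (18625, with a lowest mean signal of 88.9 in fat and 52.7 in hypothalamus) were fitted with limma 3.58.1 (lmFit, eBayes with trend) in R 4.3.3, within each tissue and over both, with Benjamini-Hochberg adjustment over all probe sets at 0.05. The difference of treatment effects between tissues was tested on the 15531 probe sets that passed in both. Gene symbols came from the platform annotation, using probe sets with a single symbol, and the brightest probe set stood for a gene. Of the 30 genes, 20 had 1 probe set, 9 had 2 and 1 had 3. The script was tested on simulated data. Tables and figures used Python 3.11.15.

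Members and gene lists were chosen with earlier results of these data known. Array values are printed for genes whose groups do not overlap (up to 5 in each direction) and for Lamp1, Lamp2, Ctsd, Ctsb, Ctss, Laptm5 and Grn in at least their difference; other lysosomal genes are named where called, otherwise the 3 with the lowest p. Replicates are separate RNA samples, and 3 arrays a group limit the precision. Alternatives were a pseudocount of 50, quantile normalization, median centring, array weights, no filter or the upper 40.0%, all probe sets of a gene, a replicate block, Pair-Fed arrays alone for the tissue contrast, and leaving out each array.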

Additional observations from a re-analysis of the deposited data

Results flagged for a closer look

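By the brightest probe set, differences from Pair-Fed were opposite in the tissues, with no overlap between groups in either, for 4 pairs of values, and the difference between the tissues was not tested, because the choice of genes used it. Ctsh differed by -1.76 in fat and by 0.80 in hypothalamus for RYGB-Success. Fuca1 differed by -0.84 in fat and by 0.73 in hypothalamus for RYGB-Success, and by -0.44 and 0.63 for RYGB-Fail. Gm2a differed by -0.39 in fat and by 0.43 in hypothalamus for RYGB-Fail. Without RYGB-Fail array 3 the fat differences of Fuca1 and Gm2a were -0.20 and -0.26. Of all probe sets tested in both tissues, 1.06% were so placed for RYGB-Success and 0.296% for RYGB-Fail. Nothing is read from these shares. The Pair-Fed arrays are shared by the RYGB-Success and RYGB-Fail values.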

How the results depend on the processing

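With arrays centred on their median, the median difference of the lysosomal genes for RYGB-Success against Pair-Fed was -0.74 in fat, against -0.27 over all probe sets, and -0.12 in hypothalamus, against -0.19. For RYGB-Fail against Pair-Fed in hypothalamus it was 0.09, and 0.13 with all probe sets of a gene. For RYGB-Success against RYGB-Fail in hypothalamus it was -0.15. Centring also gave 13 genes higher and 5 lower in fat than in hypothalamus and turned Lipa to -0.21 (limma adjusted p 0.488). Between Pair-Fed arrays alone 0 genes were called lower in fat: Gla differed by 0.09 (adjusted p 0.85), Gaa by -0.88 (0.0692) and Ppt1 by -0.33 (0.355). The cause of these shifts was not tested. Leaving out 1 array at a time gave medians between -0.45 and -0.23 (RYGB-Success) and between -0.62 and -0.17 (RYGB-Fail) against Pair-Fed in fat, between -0.33 and 0.26 for RYGB-Success against RYGB-Fail in fat, and, in hypothalamus, between 0.05 and 0.22, between 0.13 and 0.26 (0.13 without Pair-Fed array 3) and between -0.07 and 0.01. It gave 21 to 23 genes higher and 3 to 5 lower in fat than in hypothalamus, with 5 lower without RYGB-Fail array 1 of fat. Array weights gave a median of -0.13 for RYGB-Fail against Pair-Fed in fat. Without RYGB-Fail array 3 of fat, limma called 879 probe sets higher and 171 lower in RYGB-Success than in RYGB-Fail fat and 42 higher and 2 lower in RYGB-Fail than in Pair-Fed fat, against 0 with it. Calls of RYGB-Success against Pair-Fed were 19 higher and 3 lower in fat without RYGB-Success array 1 and 12 higher and 52 lower in hypothalamus without RYGB-Success array 2. Counts of genes by direction, and single-gene and marker values without that array, were added after seeing the data. The count of other lysosomal genes called in a treatment comparison was 0 under every alternative run. The labels do not say whether equal replicate numbers pair the samples. Of 27 pairs of equal number, 7 correlated above 0.1 in their deviations from group means, with a range of -0.163 to 0.29. Those between fat and hypothalamus of the same treatment ranged from -0.0607 to 0.146. Pairs of unequal number are not given beside them, so these values do not decide whether the samples are paired. The replicate block left the medians as they were (-0.36 and -0.39 in fat, 0.12 and 0.20 in hypothalamus against Pair-Fed), and 23 genes were then higher in fat, with Tpp1 added (adjusted p 0.0452). Genes near the filter, such as Ctsk and Neu1 in hypothalamus, are limited by dim signal.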
